A study of Mus musculus with 12 samples.

Results

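The matrix metalloproteinases (MMPs), the ADAMTS proteinases (a disintegrin and metalloproteinase with thrombospondin motifs) and the tissue inhibitors of metalloproteinases (TIMPs) were followed here in liposarcoma and in white adipose tissue of the mouse. Members were all genes whose symbol is Mmp, Adamts or Timp followed by a number. They came to 46 of the 37750 rows of the table, of which 23 were MMPs, 19 ADAMTS proteinases and 4 TIMPs. Mmp17 shares a row with the predicted gene Gm22905, and its values are those of the joined locus. All animals were Ad/NICD mice of a 129 x C57BL/6 background, in which fat cells carry the Notch1 intracellular domain, the part of the receptor that signals in the nucleus. Liposarcomas, which arise in these mice, are malignant tumours with features of fat. The LPS group held 8 liposarcomas from animals 9 to 12 months old, and the WAT group held 4 samples of white adipose tissue from animals 3 weeks old. Both groups carry the transgene, so fat without it was not compared, and age and tissue cannot be told apart between the groups. The labels used here give no sex, fat depot or driver line, and they call the libraries biological replicates.

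MMPs and ADAMTS proteinases are zinc enzymes that cut proteins of the extracellular matrix. Most are made as inactive precursors, and TIMPs block the active site of the mature MMPs and of some ADAMTS enzymes. In adipose tissue they are known for reshaping the pericellular collagen network as fat expands, and in tumours for matrix turnover and invasion. RNA levels do not report enzyme activity, which depends on activation of the precursor and on inhibitors.

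On chromosome 9, 10 MMP genes lie side by side (chr9:7272514-7699585, build GRCm38), in the order Mmp13, Mmp12, Mmp1b, Mmp3, Mmp1a, Mmp10, Mmp8, Mmp27, Mmp20 and Mmp7. RefSeq promoters (GRCm38.p6) were matched by symbol for 32 of the 46 members. The 250 bases before the start site were searched on both strands for TGANTCA, the core of the site bound by AP-1 (Fos and Jun proteins). These letters were found in 8 of the 10 genes of the cluster and in 0 of the other 22 members with a promoter entry, against 7.82% of 27025 genes with a promoter entry (6.75% of their 32851 promoters). The 100 bases before the start site of 4 of the cluster genes are shown as examples, since they include both genes of the cluster that were tested (Mmp13 and Mmp3). The examples were chosen after the promoters were read, and Mmp1a, Mmp1b, Mmp7 and Mmp20 hold the motif too. The N stands for any base: Mmp20 matches only as TGAATCA, and the other genes with a match as TGAGTCA or TGACTCA. Capitals mark the motif.
Mmp13 (chr9:7272414-7272513, plus strand): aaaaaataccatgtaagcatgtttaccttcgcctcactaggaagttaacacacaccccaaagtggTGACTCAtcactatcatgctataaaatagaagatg
Mmp12 (chr9:7347274-7347373, plus strand): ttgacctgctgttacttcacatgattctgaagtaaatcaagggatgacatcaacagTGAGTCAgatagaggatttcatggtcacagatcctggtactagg
Mmp3 (chr9:7445722-7445821, plus strand): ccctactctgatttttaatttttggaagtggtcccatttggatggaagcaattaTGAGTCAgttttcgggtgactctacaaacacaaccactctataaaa
Mmp10 (chr9:7502242-7502341, plus strand): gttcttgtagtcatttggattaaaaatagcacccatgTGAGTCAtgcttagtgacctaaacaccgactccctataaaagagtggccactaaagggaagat
The motif begins 35 bases before the start site in Mmp13, 44 in Mmp12, 46 in Mmp3 and 63 in Mmp10. Mmp8 and Mmp27 lack it in this window, which says only that these letters are not there.

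The promoters were also searched for TGGGAA, the core of the site bound by RBPJ, the DNA-binding partner of the Notch1 intracellular domain. It was found in 5 of the 32 members, which were Adamts13, Adamts14, Mmp28, Mmp7 and Timp1, against 24.1% of the 27025 genes (21.6% of promoters). A match describes letters, not a bound site. Windows of 56 bases around the motif are shown for Timp1 and Mmp28, since among the 5 these have the largest called difference each way between LPS and WAT. Capitals mark the motif, and each window reads in the direction of the gene.
Timp1 (chrX:20869983-20870038, plus strand): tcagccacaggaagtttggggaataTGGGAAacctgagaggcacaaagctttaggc
Mmp28 (chr11:83463139-83463194, minus strand): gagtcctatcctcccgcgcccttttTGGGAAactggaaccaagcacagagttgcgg

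Values are FPKM as deposited, that is, fragments per kilobase of transcript relative to all mapped fragments of the library. Of the 12 libraries, 12965 to 14248 rows reached 1 FPKM. Library LPS 5 stood apart from the rest: its level of the predicted gene Gm10800 was 361556 FPKM, with no more than 3340 FPKM in any other library, and the median ratio of its rows to the rows' geometric mean was 0.806, against 0.988 to 1.05 elsewhere. Without LPS 5 the counts given next were 6 members higher and 11 lower. The labelled WAT held its defining markers: 8 adipocyte markers summed to 8352 to 9951 FPKM there, and to 83.5 to 2125 FPKM in LPS. Skeletal muscle markers differed between the WAT libraries, from 5.83 FPKM in WAT 2 to 1816 FPKM in WAT 1, against 1.27 to 476 FPKM in LPS.

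The comparison of LPS with WAT asks which of these genes differ between tumour and fat. Of the 46 members, 29 reached 1 FPKM in at least 4 of the 12 libraries and were tested with limma on log2(FPKM + 1), with Benjamini-Hochberg adjustment over all 14821 rows tested. The pseudocount of 1 shrinks the log2 differences of weakly expressed genes. At an adjusted p below 0.05, 6 members were higher in LPS, beside 18.9% of all rows tested, and 10 were lower, beside 27.0% of all rows. As shares of the 29 tested members these are 20.7% and 34.5%, so neither share is far from that of rows in general. The higher ones were Mmp14, Mmp11, Mmp13, Adamts4, Adamts7 and Timp1. The lower ones were Mmp28, Mmp19, Mmp23, Adamts2, Adamts14, Adamts5, Adamts20, Adamts10, Adamts6 and Timp2. All LPS libraries lay above all WAT libraries for 4 members, beside 11.8% of all rows, and below them for 9, beside 20.9% of all rows. These are 13 members in either direction, beside 32.6% of all rows. The median log2 difference of the 29 was -0.25, against -0.05 over all rows tested. Of the 29, Mmp13 and Mmp16 passed the filter only through LPS, and Adamts14 and Adamts20 only through WAT, so for these 4 genes a difference was favoured by the filter. Another 4 members reached 1 FPKM in at least 1 library without being tested, and 13 did so in none.

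**Figure D1:**
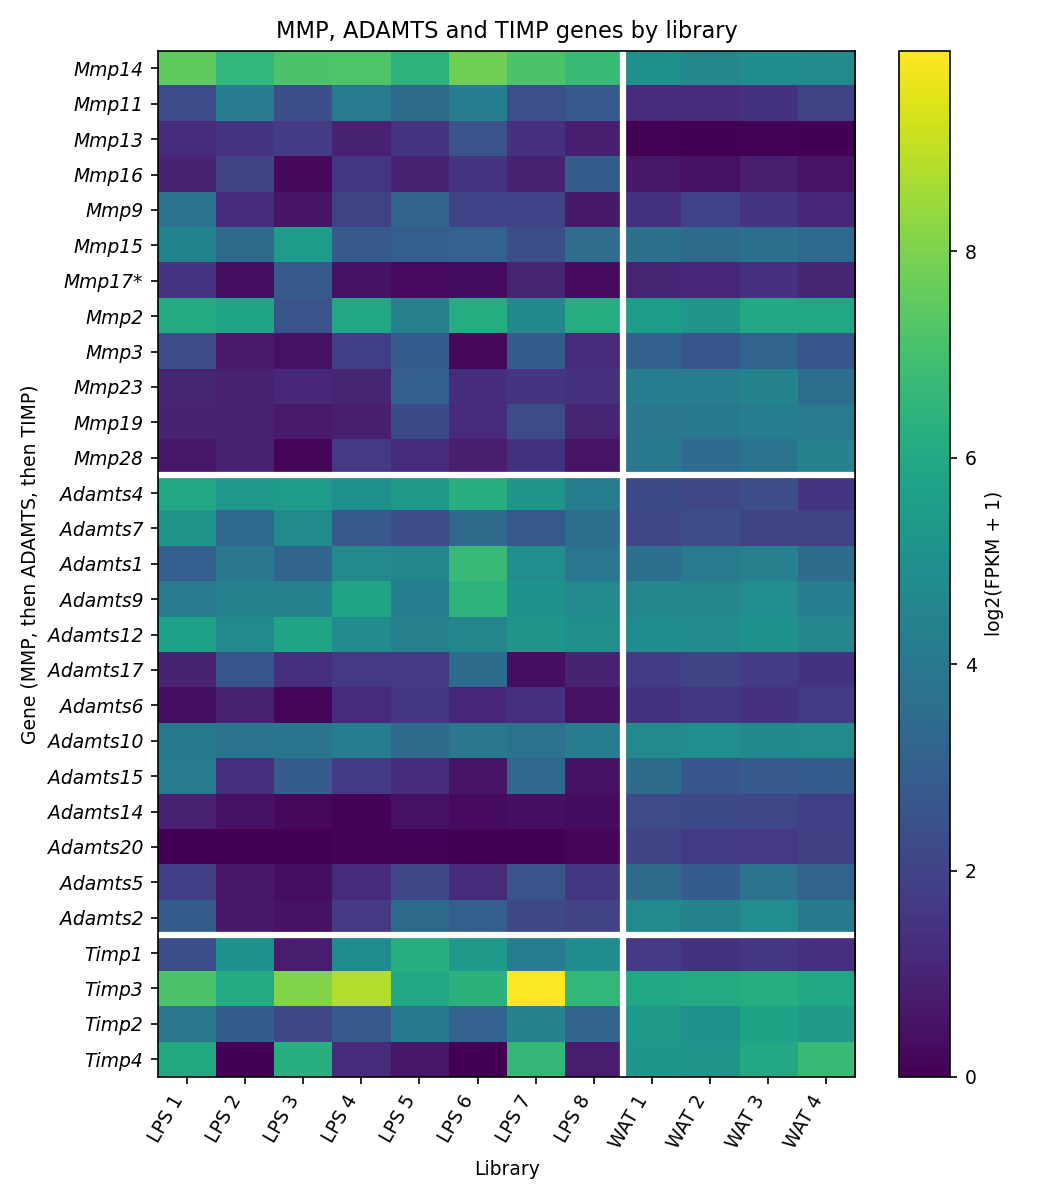
Level of each of the 29 tested members (lines, by family) in each library (columns, LPS left of WAT), as log2(FPKM + 1); an asterisk marks the joined Mmp17 locus. Mmp14, Timp3, Mmp2 and Adamts4 are among the strongest in LPS, and Timp4 is strong in LPS 1, LPS 3 and LPS 7 and weak in the other 5 tumours.

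**Figure D2:**
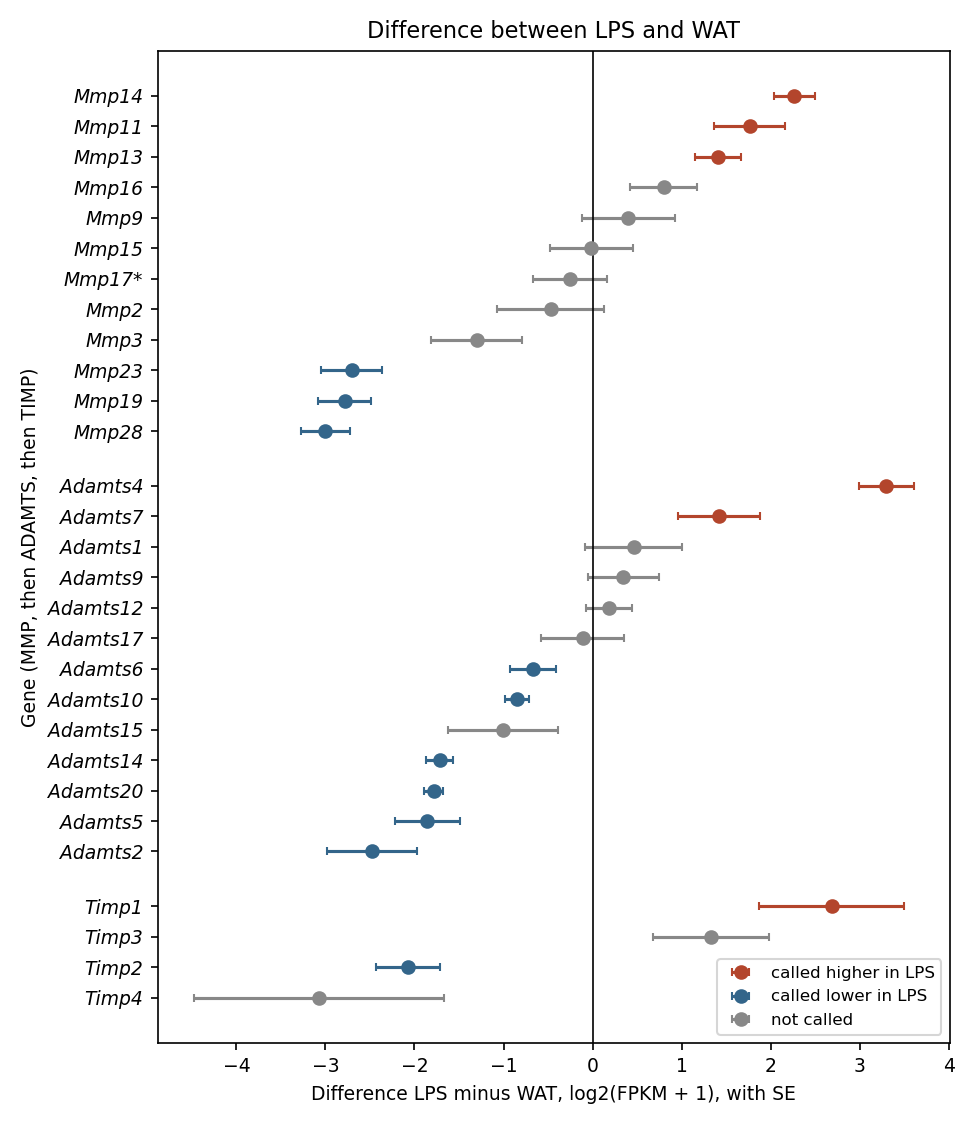
Difference of LPS minus WAT in log2(FPKM + 1) for each tested member, with bars for the standard error from limma; colour marks members with an adjusted p below 0.05 and an asterisk the joined Mmp17 locus. The 6 members higher in LPS run up to 3.30 (Adamts4) and the 10 lower ones down to -3.00 (Mmp28), while Timp4, at -3.08, has the widest bar and was not called.

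Among the MMPs that sit in the cell membrane, Mmp14 was higher and Mmp23 lower in LPS. Mmp14 (chr14:54431612-54445364) encodes the membrane collagenase best known for activating the precursor of Mmp2 at the cell surface, with Timp2 as the bridge between the enzymes. It ran from 84.7 FPKM in LPS 5 over a median of 141 FPKM to 219.6 FPKM in LPS 6, and was at 31.0, 23.5, 27.6 and 25.8 FPKM in WAT 1 to 4. Every tumour lay above every WAT library. The mean was 139 ± 45.6 FPKM in LPS and 27.0 ± 3.16 FPKM in WAT (SD, n = 8 and 4), a ratio of 5.15, with a log2 difference of 2.26 ± 0.23 (SE) and an adjusted p of 3.84e-06 (limma). As these are bulk samples, fewer cells of a type and less RNA per cell cannot be told apart, here and in what follows.

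Mmp2, the gelatinase that Mmp14 activates, was not called in either direction. It ran from 4.89 FPKM in LPS 3 over a median of 57.5 FPKM to 70.1 FPKM in LPS 6, and stood at 46.1, 35.4, 63.2 and 61.7 FPKM in WAT 1 to 4. The groups overlapped, with LPS 3, LPS 5 and LPS 7 below every WAT library and LPS 1, LPS 6 and LPS 8 above every one. Its log2 difference of -0.47 ± 0.60 (SE) was not called (adjusted p = 0.553, limma). Timp2 (chr11:118301069-118355740), the inhibitor needed for that activation, was lower in LPS: it ran from 3.31 FPKM in LPS 3 over a median of 8.11 FPKM to 20.3 FPKM in LPS 7, against 41.1, 31.9, 52.9 and 40.9 FPKM in WAT 1 to 4. All 8 tumours were below all WAT libraries. The mean fell to 10.2 ± 5.77 FPKM in LPS, against 41.7 ± 8.62 FPKM in WAT (SD), a log2 difference of -2.07 ± 0.36 (SE, adjusted p = 0.000417, limma). The ratio of Mmp14 to Timp2 transcripts thus differed in both of its terms between the groups, while Mmp2 spread more among tumours than it differed from WAT.

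**Figure D3:**
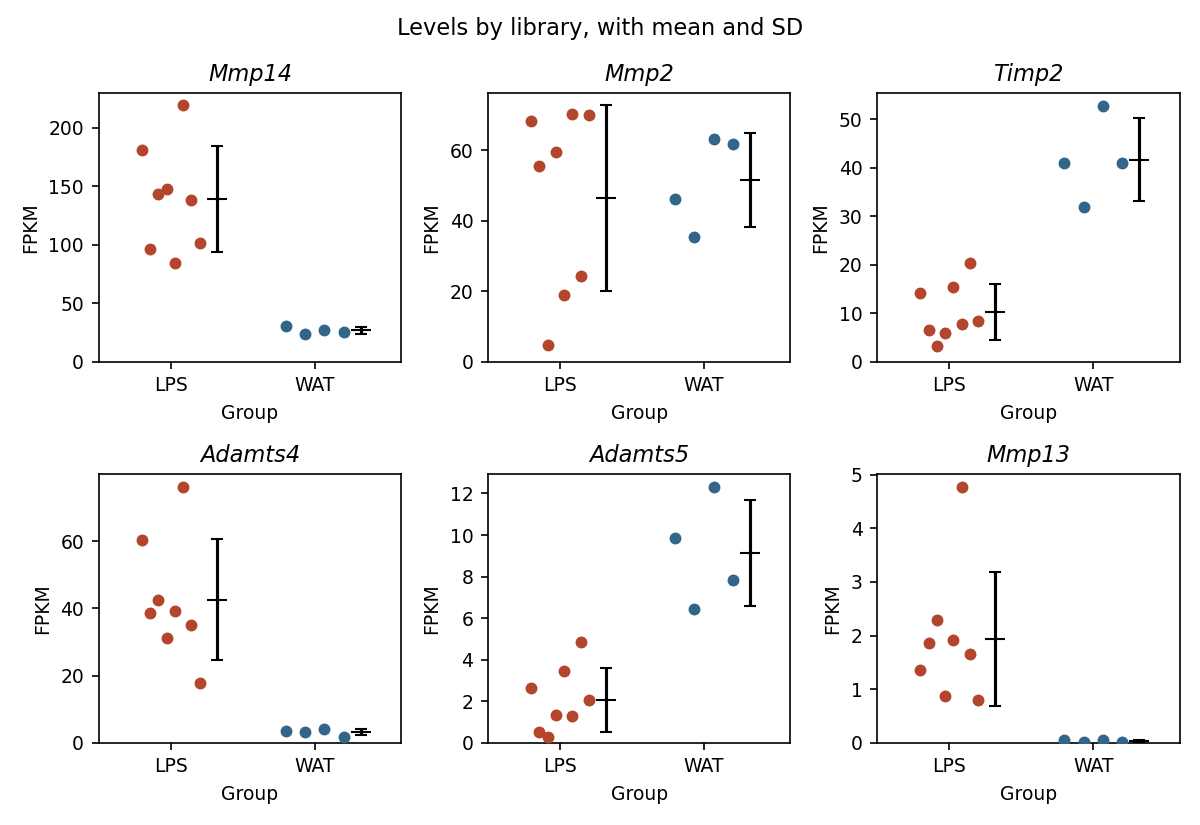
FPKM of 6 members in each library, LPS left of WAT in every panel, with 1 point per library and the mean with SD beside the points. All tumours lie above WAT for Mmp14, Adamts4 and Mmp13 and below WAT for Timp2 and Adamts5, while Mmp2 overlaps, with LPS 3 at 4.89 FPKM.

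The other membrane-bound MMPs were less abundant than Mmp14 in every tumour. Mmp15, a close relative of Mmp14, ran from 4.19 to 44.1 FPKM in LPS with a median of 8.69 FPKM, against 11.8, 9.96, 11.5 and 9.54 FPKM in WAT 1 to 4. LPS 3 and LPS 1 (21.7 FPKM) lay above WAT and 4 tumours below, and the log2 difference of -0.01 ± 0.47 (SE) was not called. Mmp16, also of the Mmp14 subgroup, had a median of 1.44 FPKM in LPS, with 0.203 FPKM in LPS 3 and 6.55 FPKM in LPS 8, against 0.399 to 0.766 FPKM in WAT. It was higher than WAT in 7 of 8 tumours and not called (log2 difference 0.80 ± 0.38, adjusted p = 0.103, limma), though it passed without LPS 3 (adjusted p = 0.0338). The joined Mmp17 locus, whose MMP is held by a lipid anchor, stood at 0.208 to 5.94 FPKM in LPS, the highest in LPS 3, and at 1.03 to 1.64 FPKM in WAT, with no call. Mmp25, the other lipid-anchored member, was outside the test and ran from 0.0524 to 0.660 FPKM in LPS, against 1.14, 1.87, 0.849 and 1.30 FPKM in WAT 1 to 4, so that the groups did not overlap.

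Mmp23 (chr4:155650655-155653384), a short MMP anchored by its N terminus, ran from 0.873 FPKM in LPS 2 over a median of 1.34 FPKM to 7.14 FPKM in LPS 5, against 17.7, 17.7, 21.1 and 10.9 FPKM in WAT 1 to 4. Each tumour was below each WAT library, with LPS 5 the nearest. The log2 difference was -2.70 ± 0.34 (SE), with an adjusted p of 2.67e-05 (limma).

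Of the second gelatinase, Mmp9, a product of myeloid cells among others, LPS held 0.435 to 12.2 FPKM with a median of 2.94 FPKM, and WAT held 1.73, 2.95, 1.89 and 1.18 FPKM. The 2 highest values were LPS 1 (12.2 FPKM) and LPS 5 (8.05 FPKM), and the 2 lowest LPS 3 (0.435 FPKM) and LPS 8 (0.619 FPKM). It was not called (log2 difference 0.40 ± 0.53, adjusted p = 0.562, limma). The macrophage markers summed highest in LPS 1 as well (600.0 FPKM, against 162 to 544 FPKM in the other tumours and 146 to 164 FPKM in WAT), and the neutrophil markers highest in LPS 5 (173 FPKM, against 3.81 to 30.3 FPKM in the other tumours and 4.73 to 44.8 FPKM in WAT). The neutrophil markers were lowest in LPS 1 (3.81 FPKM). LPS 7, next for the macrophage markers (544 FPKM), had 3.05 FPKM of Mmp9. C1qa and C1qb (293 and 182 FPKM in LPS 1) made up most of the macrophage sum there, and both were called higher in LPS. Cd163 was called lower, and Csf1r, Cd68 and Mrc1 were not called. Among tumours, Cd68 was highest in LPS 5 and the other macrophage markers in LPS 1. The part of macrophages and neutrophils in the Mmp9 values was not tested.

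In the chromosome 9 cluster, Mmp13 and Mmp3 were tested and Mmp13 was called. Mmp13 (chr9:7272514-7283331), the main interstitial collagenase of the mouse and a gene known from cartilage and bone, stood at 1.35, 1.86, 2.30, 0.876, 1.92, 4.77, 1.65 and 0.792 FPKM in LPS 1 to 8, and at 0.0532, 0.0246, 0.0441 and 0.0200 FPKM in WAT 1 to 4. All tumours were above all WAT libraries, at a low level. About 1 fragment on a transcript of 2 kb was worth 0.0181 to 0.0339 FPKM in WAT, so the WAT values rest on very few fragments. The log2 difference was 1.41 ± 0.26 (SE), with an adjusted p of 0.00058 (limma). Mmp13 passed the filter only through LPS, so an increase was favoured. Among 7 markers of cartilage and bone, Sp7 and Sox9, transcription factors of bone and cartilage cells, were higher in LPS (Sp7 at 7.99 ± 4.40 FPKM, against 0.0471 ± 0.0265 FPKM in WAT, SD), while the defining matrix genes Col2a1, Acan, Bglap and Ibsp averaged 0.00901 to 0.238 FPKM in LPS and 0.00342 to 0.0925 FPKM in WAT. All 7 markers together summed to 7.77 to 27.5 FPKM in LPS and 2.59 to 3.67 FPKM in WAT.

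Mmp3, a stromelysin that also activates other MMPs, had 3.95, 0.658, 0.348, 2.59, 6.49, 0.172, 6.48 and 1.33 FPKM in LPS 1 to 8, against 7.54, 5.12, 8.19 and 5.03 FPKM in WAT 1 to 4. The groups overlapped through LPS 5 and LPS 7. Its log2 difference of -1.30 ± 0.51 (SE) just missed the threshold (adjusted p = 0.0509, limma), and it passed without LPS 1, LPS 5 or LPS 7 (adjusted p = 0.0428, 0.0222 and 0.0212).

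Mmp8, the neutrophil collagenase, was outside the test, and stood at 6.79 FPKM in LPS 5, against at most 0.509 FPKM in the other tumours and 0.0687 to 0.460 FPKM in WAT. LPS 5 and WAT 2 were the highest libraries of their groups for Mmp8, and they were also highest for the summed neutrophil markers (173 and 44.8 FPKM). S100a8 (101 and 25.6 FPKM) and S100a9 (57.7 and 14.1 FPKM) made up most of these sums. Ngp and Csf3r were highest in the same libraries, and Elane in LPS 5 and WAT 3. Camp and Ltf were highest in LPS 4 (0.620 and 0.405 FPKM) and, in fat, in WAT 4 (2.64 FPKM) and WAT 3 (1.55 FPKM). The part of neutrophil RNA was not tested. Mmp12, the macrophage elastase, ran from 0.245 to 1.51 FPKM in LPS (median 0.497 FPKM) and stood at 0.114, 1.07, 0.292 and 0.153 FPKM in WAT 1 to 4. Mmp27, a stromelysin-like enzyme, lay between 0.0329 and 0.962 FPKM in LPS, against 1.27, 0.887, 2.42 and 2.48 FPKM in WAT, with LPS 5 alone above the lowest WAT library. The remaining cluster genes, Mmp1a, Mmp1b, Mmp7, Mmp10 and Mmp20, reached 1 FPKM in no library.

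Mmp11 (chr10:75923222-75936496) is a stromelysin by name that furin-like enzymes activate inside the cell, and it lies outside the cluster. It ran from 4.00 FPKM in LPS 1 over a median of 7.87 FPKM to 17.2 FPKM in LPS 6, against 1.34, 1.38, 1.76 and 2.77 FPKM in WAT 1 to 4. The 8 tumours were all above WAT, with LPS 2, LPS 4 and LPS 6 at 16.2 to 17.2 FPKM and the other 5 at 4.00 to 9.69 FPKM. The log2 difference was 1.77 ± 0.40 (SE), with an adjusted p of 0.00288 (limma).

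Both other secreted MMPs that were tested were lower in LPS. Mmp28 (chr11:83440768-83463071), known from epithelium and resting tissue, ran from 0.134 FPKM in LPS 3 over a median of 0.846 FPKM to 2.19 FPKM in LPS 4, against 15.2, 10.0, 13.3 and 21.1 FPKM in WAT 1 to 4. No tumour came near the lowest WAT library. The mean was 1.02 ± 0.700 FPKM in LPS and 14.9 ± 4.64 FPKM in WAT (SD), with a log2 difference of -3.00 ± 0.28 (SE) and an adjusted p of 1.50e-06 (limma).

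Mmp19 (chr10:128790910-128800824), an enzyme that cuts basement membrane proteins, ran from 0.661 FPKM in LPS 3 over a median of 1.03 FPKM to 3.84 FPKM in LPS 7, against 14.2, 15.1, 17.9 and 15.6 FPKM in WAT 1 to 4. LPS 5 (3.64 FPKM) and LPS 7 stood above the other 6 tumours, which lay at 0.661 to 1.32 FPKM, and all were below WAT. Its log2 difference was -2.78 ± 0.30 (SE), with an adjusted p of 6.04e-06 (limma). The locus overlaps that of Tmem198b, so reads of the pair may not be told apart. The loci of the called Timp2, Mmp28, Adamts2 and Adamts7 are likewise shared with other genes, and Timp1 is described below. Fibroblast and progenitor markers moved the same way (35.2 to 367 FPKM in LPS, against 893 to 1533 FPKM in WAT, with 6 of 6 tested markers lower), and so did lymphocyte markers (1.10 to 17.3 FPKM in LPS, against 80.6 to 181 FPKM in WAT, with 7 of 7 lower). Pericyte markers moved the other way (3430 to 7637 FPKM in LPS, against 173 to 195 FPKM in WAT, with 7 of 7 higher). The part of these cell types in the MMP, ADAMTS and TIMP values was not tested. Beside these marker counts, 18.9% of all rows tested were higher and 27.0% lower.

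Among ADAMTS proteinases that cut proteoglycans such as aggrecan and versican, Adamts4 was higher and Adamts5 and Adamts20 lower in LPS. Adamts4 (chr1:171250421-171260637) had the largest called increase of all members on the log2(FPKM + 1) scale. With a pseudocount of 0.1 Mmp13 exceeded it (3.72 against 3.64), and by ratio of means Mmp13 and Timp1 did. It ran from 17.7 FPKM in LPS 8 over a median of 38.9 FPKM to 76.1 FPKM in LPS 6, against 3.65, 3.29, 4.03 and 1.82 FPKM in WAT 1 to 4. The lowest tumour was above the highest WAT library. The mean was 42.6 ± 18.0 FPKM in LPS and 3.20 ± 0.967 FPKM in WAT (SD, n = 8 and 4), a ratio of 13.3, with a log2 difference of 3.30 ± 0.31 (SE) and an adjusted p of 1.72e-06 (limma).

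Adamts5 (chr16:85856173-85901828), the other major aggrecanase, ran in the opposite direction. It stood at 0.287 FPKM in LPS 3, at a median of 1.69 FPKM and at 4.87 FPKM in LPS 7, against 9.85, 6.45, 12.3 and 7.85 FPKM in WAT 1 to 4. All tumours were below WAT, and the log2 difference was -1.85 ± 0.37 (SE, adjusted p = 0.00111, limma). In every tumour Adamts4 was the more abundant of the pair per length, and in every WAT library Adamts5 was. Adamts20 was at 0 to 0.143 FPKM in LPS and at 3.23, 2.39, 2.11 and 2.72 FPKM in WAT 1 to 4. It is known for versican cleavage in the developing skin of the mouse. LPS 1 was listed at 0 and no tumour came near WAT, with a log2 difference of -1.78 ± 0.11 (SE, adjusted p = 3.49e-08, limma). Adamts20 passed the filter only through WAT, so a decrease was favoured.

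Adamts1, Adamts9 and Adamts15, further versican-cleaving enzymes, were not called. Adamts1 stood at 6.96, 14.7, 8.47, 24.4, 22.6, 104, 28.5 and 14.1 FPKM in LPS 1 to 8, against 11.4, 16.7, 19.4 and 10.4 FPKM in WAT 1 to 4. LPS 6 was far above the others, and the rest overlapped with WAT (log2 difference 0.46 ± 0.54, adjusted p = 0.519, limma). Adamts9 was likewise highest in LPS 6, at 85.7 FPKM, with 16.1 to 55.4 FPKM in the other tumours and 18.2 to 28.1 FPKM in WAT. Adamts15 ran from 0.385 to 15.6 FPKM in LPS and from 5.10 to 10.4 FPKM in WAT, with a log2 difference of -1.001 ± 0.62 (SE, adjusted p = 0.205). Among their substrates, Vcan (versican) averaged 8.00 ± 6.13 FPKM in LPS and 15.2 ± 2.91 FPKM in WAT (SD) and was not called (adjusted p = 0.0942, limma), and Acan (aggrecan) averaged 0.0368 FPKM in LPS and 0.0925 FPKM in WAT.

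The procollagen N-propeptidases, which trim fibrillar procollagens so that fibrils can form, were lower in LPS in both tested cases. Adamts2 (chr11:50602084-50807573) ran from 0.411 FPKM in LPS 3 over a median of 3.28 FPKM to 9.83 FPKM in LPS 5, against 25.7, 20.8, 28.6 and 15.3 FPKM in WAT 1 to 4. Every tumour lay below WAT, although tumours differed widely among themselves. The log2 difference was -2.48 ± 0.51 (SE), with an adjusted p of 0.00139 (limma).

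Adamts14 ran from 0.0653 to 0.834 FPKM in LPS, against 3.87, 3.53, 3.39 and 2.56 FPKM in WAT 1 to 4. Again no tumour reached WAT, and the log2 difference was -1.72 ± 0.15 (SE, adjusted p = 1.07e-06, limma). Adamts14 too passed the filter only through WAT, which favoured a decrease. The third enzyme, Adamts3, reached 1 FPKM in no library. Of the substrates, Col1a1 averaged 95.1 ± 94.2 FPKM in LPS and 831 ± 284 FPKM in WAT, and Col1a2 129 ± 150 FPKM in LPS and 772 ± 253 FPKM in WAT (SD). These collagen genes, added after their values were seen, were both lower in LPS (adjusted p = 0.000986 and 0.0117, limma).

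Adamts7 and Adamts12 cut cartilage oligomeric matrix protein. Adamts7 (chr9:90163069-90208071) stood at 35.1, 9.60, 26.4, 5.87, 4.04, 9.70, 5.87 and 11.0 FPKM in LPS 1 to 8, against 3.35, 4.14, 3.12 and 2.80 FPKM in WAT 1 to 4. LPS 1 and LPS 3 were the highest, and LPS 5, most of whose rows read low as deposited, fell just below WAT 2. It was called higher, with a log2 difference of 1.42 ± 0.46 (SE, adjusted p = 0.0228, limma). The call was lost without WAT 1, WAT 3 or WAT 4 (adjusted p = 0.053, 0.058 and 0.0638). Adamts12 stood at 19.2 to 54.8 FPKM in LPS and at 22.2 to 33.0 FPKM in WAT and was not called (log2 difference 0.18 ± 0.26, adjusted p = 0.585). The substrate gene Comp averaged 0.397 FPKM in LPS and 0.255 FPKM in WAT.

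Of the remaining ADAMTS genes, Adamts10, which binds fibrillin microfibrils, was lower in LPS by a small but even margin. It ran from 9.82 FPKM in LPS 5 over a median of 14.0 FPKM to 17.6 FPKM in LPS 4, against 26.1, 28.1, 23.6 and 26.1 FPKM in WAT 1 to 4. The groups did not overlap, and the log2 difference was -0.85 ± 0.14 (SE, adjusted p = 0.000245, limma). Adamts6, its closest relative, ran from 0.125 FPKM in LPS 3 to 1.97 FPKM in LPS 5, against 1.66 to 2.41 FPKM in WAT, and its call was marginal (log2 difference -0.67 ± 0.25, adjusted p = 0.0475, limma). That call was lost in 16 of 22 alternatives, over which the adjusted p ran from 0.0125 to 0.256. They included leaving out any 1 WAT library, or LPS 1, LPS 2, LPS 3 or LPS 8. Adamts17 stood at 0.324 to 10.3 FPKM in LPS, again highest in LPS 6, and at 1.78 to 3.11 FPKM in WAT, with no call. Adamts8, Adamts13 (the protease of von Willebrand factor), Adamts16, Adamts18 and Adamts19 reached 1 FPKM in no library.

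Of the 4 TIMPs, Timp1 was higher and Timp2 lower in LPS, and Timp3 and Timp4 were not called. Timp1, Timp3 and Timp4 lie inside synapsin genes on the opposite strand. Libraries were made with a stranded kit, and the strand setting used in counting is not stated in the sources at hand. Reads of a TIMP and its host may therefore not be fully told apart. Timp1 (chrX:20870166-20874735), an inducible inhibitor of most secreted MMPs, stood at 4.30, 31.6, 0.681, 27.3, 74.6, 39.2, 17.0 and 27.2 FPKM in LPS 1 to 8, against 2.21, 1.73, 1.98 and 1.53 FPKM in WAT 1 to 4. LPS 3 was below WAT and the other 7 tumours above it, so the tumours spread 110-fold. It was called higher, with a log2 difference of 2.68 ± 0.81 (SE, adjusted p = 0.0164, limma). Its host Syn1 was at 0.203 to 0.395 FPKM in LPS and at 0.271 to 0.533 FPKM in WAT. Without WAT 1 and WAT 4, which held the most muscle marker RNA, the calls of Timp1 (adjusted p = 0.113), Adamts7 (0.159) and Adamts6 were lost. Adamts14 and Adamts20 then no longer passed the filter, and 4 members were higher and 7 lower. With fewer WAT libraries, calls also fell over all rows, to 1402 higher and 2114 lower of 13890. With all libraries they were 2806 and 4007 of 14821. The part of muscle RNA in the lost calls was not tested.

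Timp3 (chr10:86300372-86349506), the TIMP that binds to the matrix and also blocks ADAM and ADAMTS enzymes, was the most abundant TIMP in 7 of 8 tumours. It stood at 138, 69.0, 268, 442, 61.5, 82.8, 983 and 94.8 FPKM in LPS 1 to 8, against 61.4, 66.7, 71.9 and 60.1 FPKM in WAT 1 to 4. WAT held to a narrow band, and LPS 7, LPS 4 and LPS 3 were far above it. The log2 difference of 1.33 ± 0.65 (SE) was not called (adjusted p = 0.114, limma). Its host Syn3 was also highest in LPS 7 (5.60 FPKM) and LPS 4 (3.41 FPKM), against 0.367 to 0.900 FPKM in the other tumours and 0.842 to 1.25 FPKM in WAT.

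Timp4 (chr6:115241892-115252205), the TIMP of restricted expression that is known from heart and fat, parted the tumours into separate levels. It was at 65.3, 74.9 and 97.9 FPKM in LPS 1, LPS 3 and LPS 7, within the 36.0, 34.8, 62.6 and 106 FPKM of WAT 1 to 4. In LPS 4, LPS 5 and LPS 8 it was at 1.43, 0.573 and 0.688 FPKM, and in LPS 2 and LPS 6 it was listed at 0. Its log2 difference of -3.08 ± 1.40 (SE) was not called (adjusted p = 0.0909, limma), and it passed without LPS 1, LPS 3 or LPS 7 (adjusted p = 0.0493, 0.0457 and 0.0373). Its host Syn2 was at 0.0457 to 0.607 FPKM in LPS and at 2.33 to 7.32 FPKM in WAT.

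Pparg, the master regulator of adipocyte differentiation, is encoded 109 kb from Timp4. Pparg stood at 82.2, 3.56, 94.2, 10.3, 6.43, 2.93, 66.5 and 16.4 FPKM in LPS 1 to 8, against 101, 70.4, 87.5 and 134 FPKM in WAT 1 to 4. The same 3 tumours, LPS 1, LPS 3 and LPS 7, were highest for both genes. They were also highest for Fabp4, the fatty acid carrier of fat cells, at 2000, 1229 and 1070 FPKM, against 66.4 to 135 FPKM in the other tumours and 6301 to 7688 FPKM in WAT. Fabp4 makes up most of the summed adipocyte markers, and other markers of the list followed it only in part. Lipe was also highest in LPS 7, LPS 3 and LPS 1 (5.31, 3.88 and 3.07 FPKM), against at least 393 FPKM in WAT. Cebpa was highest in LPS 7 (9.24 FPKM) and LPS 1 (7.00 FPKM), against at least 167 FPKM in WAT. In LPS 3 (3.51 FPKM) Cebpa was lower than in LPS 6 (5.54 FPKM). Adipoq (4.26 FPKM), Cidec (1.76 FPKM) and Lep (0.0658 FPKM) were highest in LPS 5, against at least 514, 246 and 13.0 FPKM in WAT. Plin1 was highest in LPS 1 (32.2 FPKM), but higher in LPS 5 (1.71 FPKM) than in LPS 7 (0.594 FPKM), against at least 417 FPKM in WAT. Pparg in LPS 1 and LPS 3 lay within the range of WAT, and in LPS 7 just below it. The part of residual fat cells in these values was not tested.

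**Figure D4:**
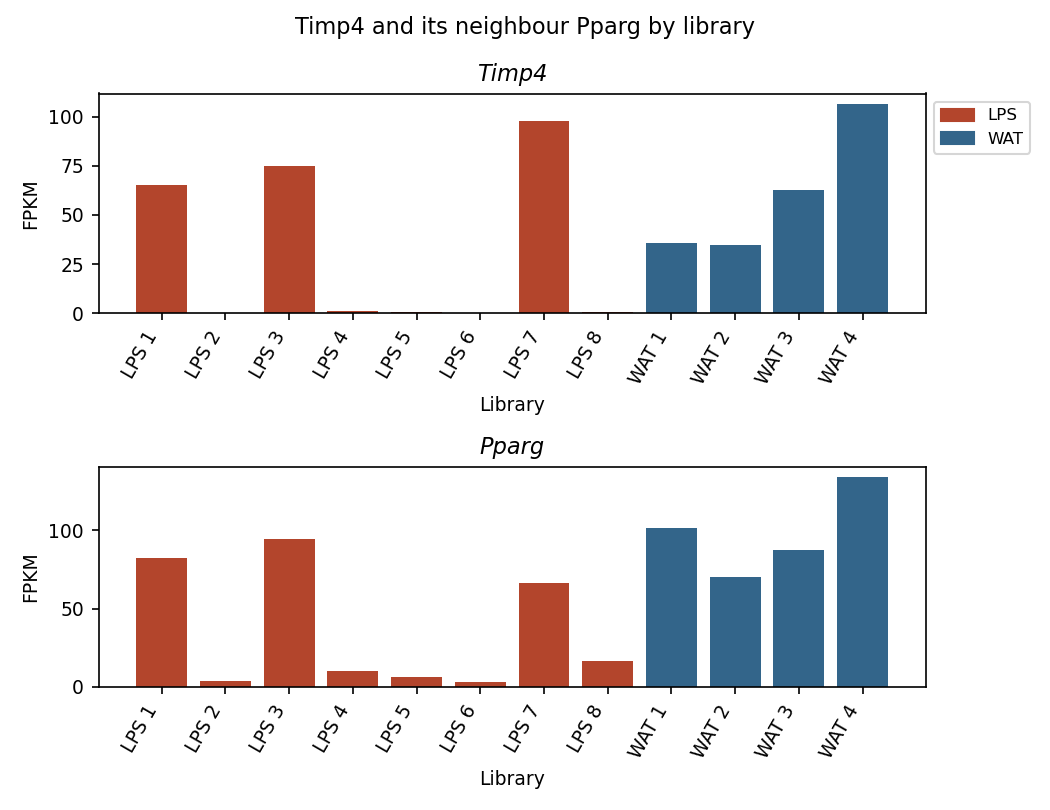
FPKM of Timp4 and of Pparg in each library, with the 8 LPS libraries left of the 4 WAT libraries. In LPS 1, LPS 3 and LPS 7 Timp4 stands at 65.3 to 97.9 FPKM and Pparg at 66.5 to 94.2 FPKM, while the other 5 tumours hold at most 1.43 FPKM of Timp4 and 16.4 FPKM of Pparg.

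Since FPKM is scaled by length, the make-up of each family can be read as a share of its summed FPKM. Mmp14 gave 50.4% to 71.1% of the MMP sum in LPS and led it in 8 of 8 tumours, against 15.9% to 20.5% in WAT. Mmp2 gave 2.34% to 34.7% in LPS and 27.7% to 38.6% in WAT, where it led in 4 of 4 libraries. The MMP sum itself was 160.2 to 331 FPKM in LPS (median 205 FPKM) and 128 to 173 FPKM in WAT. Of the TIMP sum, Timp2 gave 0.953% to 10.1% in LPS and 19.6% to 29.2% in WAT. Timp1 gave 0.196% to 49.1% in LPS, leading in LPS 5, and 0.734% to 1.57% in WAT. Shares in a family depend on one another, so a larger share of one gene lowers the others.

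**Figure D5:**
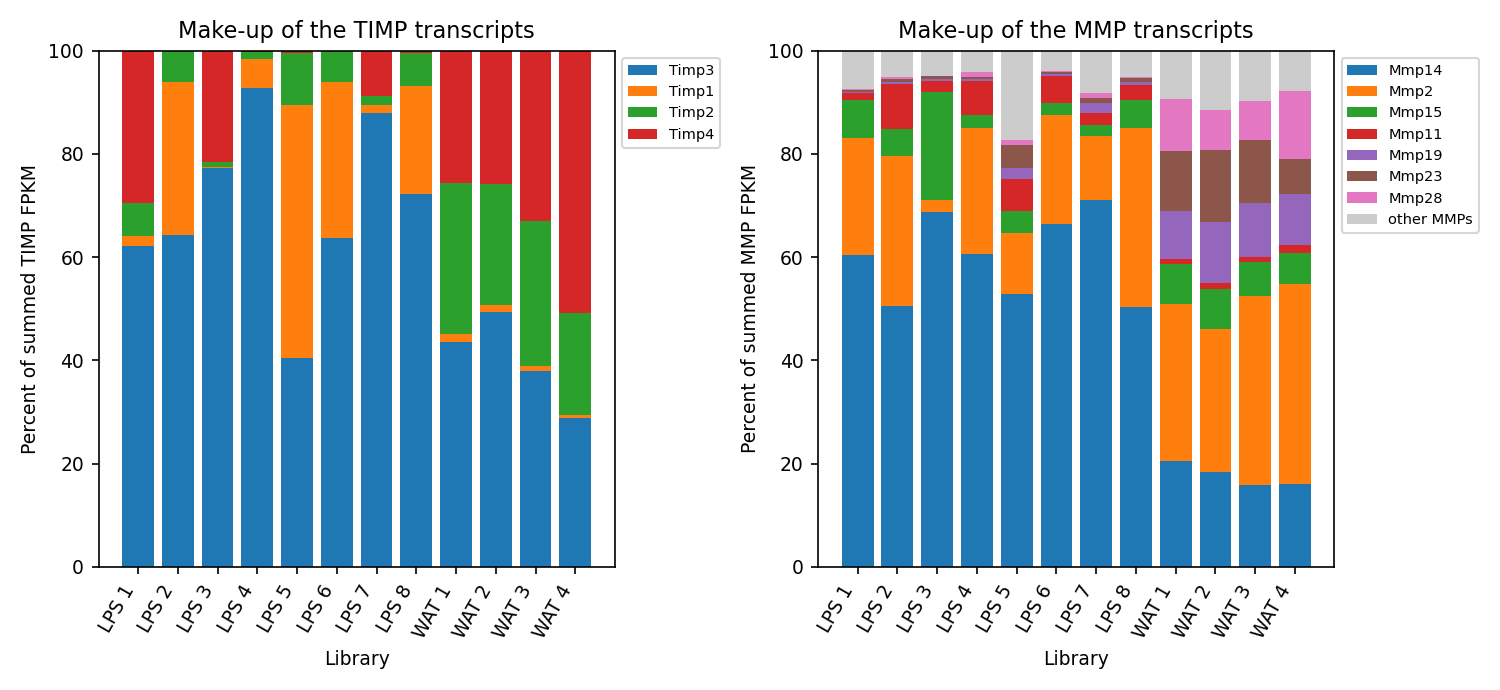
Share of each TIMP (left panel) and of the main MMPs (right panel) in the summed FPKM of its family, in percent, by library with LPS left of WAT. Mmp14 makes up 50.4% to 71.1% in LPS and 15.9% to 20.5% in WAT, and Timp2 shrinks to at most 10.1% in LPS, against at least 19.6% in WAT.

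Tumours differed in which members they held most of. Over the 29 tested members, LPS 6 was the highest tumour for 8, which were Mmp2, Mmp11, Mmp13, Mmp14, Adamts1, Adamts4, Adamts9 and Adamts17. LPS 3 was the lowest for 10, which were Mmp2, Mmp9, Mmp16, Mmp19, Mmp28, Adamts2, Adamts5, Adamts6, Timp1 and Timp2, and it was the highest for 3, Mmp15, Mmp17 and Adamts12. LPS 7 was the highest for 5 members, among them Timp2, Timp3 and Timp4. LPS 5 was the highest for 5 and the lowest for 6, with most of its rows reading low as deposited. Such counts were not made over all rows, so they may be no different from those of rows in general.

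Within LPS, age between 9 and 12 months was fitted as a slope. Of the 25 members tested, 0 were called by limma with or without trend and robust estimation, and 0 of all 13280 rows were (0% of rows). At an unadjusted p below 0.05 there were 2 members, beside 1.72% of all rows. They were Mmp3, with a log2 slope of 0.78 ± 0.23 per month (SE), and Adamts17, with -0.60 ± 0.26 per month (SE). Their adjusted p-value was 0.9998 in both cases (limma). A slope below the call threshold does not show that a gene is level with age.

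Genes that activate, inhibit or carry MMPs moved in both directions. Of the 19 on the list, 14 were tested, 3 were higher and 4 lower, with a median log2 difference of -0.20 against -0.05 over all rows. Over all rows tested, 18.9% were higher and 27.0% lower. Serpine2, an inhibitor of serine proteases such as thrombin and plasminogen activators, averaged 160 ± 116 FPKM in LPS and 7.12 ± 2.38 FPKM in WAT (SD, log2 difference 4.07 ± 0.44, adjusted p = 7.19e-06, limma). Plat, tissue plasminogen activator, which was named after its values were seen, was also higher, at 82.3 ± 42.0 FPKM in LPS and 8.02 ± 1.78 FPKM in WAT. The largest decreases were those of the proprotein convertase Pcsk6, at 1.41 ± 0.757 FPKM in LPS and 13.3 ± 3.95 FPKM in WAT, and of Spock2, a secreted proteoglycan, at 0.472 ± 0.564 FPKM in LPS and 2.95 ± 0.304 FPKM in WAT. Lrp1, the endocytic receptor that clears several MMPs and ADAMTS proteinases, was the most abundant uncalled one, at 85.2 ± 13.5 FPKM in LPS and 70.7 ± 5.51 FPKM in WAT. At an unadjusted p below 0.05 (limma), Furin was lower too (adjusted p = 0.0526).

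The counts of the ADAM and ADAMTS-like lists stand beside 18.9% of all rows tested higher and 27.0% lower. Of 11 ADAM membrane proteases, relatives of the ADAMTS family, 1 was higher and 2 were lower, and the median log2 difference was 0.15. Adam10, which sheds Notch and many other receptors, averaged 35.2 ± 8.32 FPKM in LPS and 21.8 ± 1.28 FPKM in WAT (SD, adjusted p = 0.00493, limma). Adam33 averaged 0.333 ± 0.155 FPKM in LPS and 9.88 ± 0.948 FPKM in WAT (log2 difference -3.03 ± 0.13, adjusted p = 1.10e-09, limma), and Adam15 was at 23.7 ± 5.86 FPKM in LPS and 38.8 ± 7.30 FPKM in WAT. At an unadjusted p below 0.05, Adam9, Adam22 and Adamdec1 were higher too (adjusted p = 0.0716, 0.0662 and 0.0690, limma). Of 7 ADAMTS-like proteins, which lack the protease domain, 5 were lower and 0 higher, with a median of -1.25. At an unadjusted p below 0.05, Adamtsl2 was higher too (adjusted p = 0.0595, limma). Adamtsl1 had the largest decrease, at 0.711 ± 0.962 FPKM in LPS and 7.52 ± 2.17 FPKM in WAT.

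For the substrates and regulators too, the share over all rows tested was 18.9% higher and 27.0% lower. Of 16 matrix substrates, 12 were tested, 1 was higher and 5 lower, with a median of -1.16. The higher one was Col4a1, a basement membrane collagen, at 1174 ± 421 FPKM in LPS and 338 ± 56.6 FPKM in WAT (SD). Dcn (decorin) and Eln (elastin) had the largest decreases, with Dcn at 12.3 ± 11.1 FPKM in LPS and 209 ± 39.0 FPKM in WAT and Eln at 5.16 ± 5.01 FPKM in LPS and 66.1 ± 13.2 FPKM in WAT. At an unadjusted p below 0.05, Vcan was lower too (adjusted p = 0.0942, limma). Of 12 regulators of MMP genes, 10 were tested, 3 were higher and 0 lower, with a median of 0.74. At an unadjusted p below 0.05 (limma), Fos was higher too (adjusted p = 0.0592), and still 0 were lower. Etv5 and Etv4, ETS factors known to bind MMP promoters, averaged 15.0 ± 6.09 and 7.41 ± 4.10 FPKM in LPS, against 2.44 ± 0.331 and 0.874 ± 0.155 FPKM in WAT. Among the AP-1 genes, Junb was the most abundant uncalled one. It ran from 10.0 FPKM over a median of 33.8 FPKM to 296 FPKM in LPS, with the highest value in LPS 6, against 12.2, 17.0, 13.0 and 12.3 FPKM in WAT 1 to 4. LPS 6 was also the highest tumour for Mmp13, whose promoter holds the AP-1 letters shown above. It was the lowest tumour for Mmp3 (0.172 FPKM), whose promoter holds these letters too. No relation between the genes was tested.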

How the data were processed

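RNA was measured in 12 libraries (8 LPS, 4 WAT), grouped by the titles in the labels. Per the labels, total RNA depleted of ribosomal RNA was made into stranded libraries. The deposited table holds FPKM computed by the authors for each locus. The submitters' processing notes name build GRCm38 and, without saying which did what, Cuffdiff 2.2.1, Cufflinks 2.2.1, TopHat2 2.1.0, Bowtie2 and Trimmomatic. Any further scaling between libraries and the strand setting are not stated in the sources at hand. A listed 0 can be a failed estimate.

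Fragment totals are not known. From the lowest values of 2154 single-transcript genes, the deepest library (WAT 1) had 2.60 times the depth of the shallowest (LPS 1), and 1 fragment on 2 kb was worth 0.0181 to 0.0470 FPKM. No counting interval is given. No libraries were identical (highest correlation of log2 values 0.969).

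LPS and WAT were compared with limma 3.58.1 (R 4.3.3) on log2(FPKM + 1). The two-sided test used robust empirical Bayes moderation with a trend, and Benjamini-Hochberg adjusted p-values below 0.05 were called. Rows entered when 4 or more libraries reached 1 FPKM. Joined rows stayed in the fit. Age was fitted as a slope within LPS for rows that reached 1 FPKM in 4 or more of the 8 tumours. The fits were tested on simulated data. Every tested member is named, as is every other member that reached 1 FPKM. From each other list the largest called differences each way (at most 2) and the most abundant uncalled gene could be named. Genes outside this rule are marked as such, or are uncalled genes with an unadjusted p below 0.05 (limma). A gene that the rule names is not reported here. The members and lists were chosen with earlier results of these data known.

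Alternatives were pseudocounts of 0.1 and 0.5, no filter, a filter of 5 FPKM, median-of-ratios scaling, quantile normalization, plain empirical Bayes, an exact permutation test per row (495 splits, smallest p 0.00202), the Xist level as covariate, a replicate block and leaving out each library. Leaving out WAT 1 and WAT 4 together was added after seeing the data. Promoters were from RefSeq (GRCm38.p6), and no protein sequence was used here.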

Additional observations from a re-analysis of the deposited data

Results flagged for a closer look

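A single library stood far from the rest of its group (Dixon's test at the 95% level) in 10 of 66 groups of values, over 33 genes. The test was made on FPKM without a log, and its nominal rate of 5% holds for normally distributed values. All 10 stood on the high side of their group. The share flagged therefore cannot be compared with 5%, and nothing is concluded from it. The tests are not independent, since libraries are shared. No explanation was tested for any of them.

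Of the MMPs, Mmp13 reached 4.77 FPKM in LPS 6, with the next tumour at 2.30 FPKM. Mmp15 reached 44.1 FPKM in LPS 3, with the next at 21.7 FPKM, and Mmp17 (joined locus) 5.94 FPKM in LPS 3, with the next at 1.85 FPKM. Mmp16 reached 6.55 FPKM in LPS 8, against 3.07 FPKM. Mmp23 reached 7.14 FPKM in LPS 5, against 1.82 FPKM. Mmp8 reached 6.79 FPKM in LPS 5, against 0.509 FPKM, and in fat it reached 0.460 FPKM in WAT 2, against 0.109 FPKM in the next WAT library. LPS 5 was the only library with 1 FPKM or more of Mmp8. The gene entered through the value that was flagged there, so that flag was favoured.

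Of the other families, Adamts1 reached 104 FPKM in LPS 6, with the next tumour at 28.5 FPKM, and Adamts14 reached 0.834 FPKM in LPS 1, against 0.389 FPKM. Timp3 reached 983 FPKM in LPS 7, against 442 FPKM in LPS 4.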

How the results depend on the processing

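The count of members higher in LPS, 6 as reported, was 4 to 7 over all alternatives, and that of members lower, 10 as reported, was 7 to 15, with 15 when no filter was set. Leaving out 1 library at a time gave 5 to 7 higher and 7 to 12 lower. The replicate numbers were not taken as pairs. Same-numbered LPS and WAT libraries deviated together with correlations of only -0.02, 0.02, 0.09 and 0.03, which cannot exclude a weak pairing. With the replicate block over numbers 1 to 4, 5 members were higher and 11 lower. Age calls were 0 under every alternative.

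Of the 16 called members, 13 kept their direction and call in every alternative that tested them. Among these 13 are Mmp13, which passed the main filter only through LPS, and Adamts14 and Adamts20, which passed it only through WAT. Adamts14 and Adamts20 dropped out of the test whenever a WAT library was left out, and with a filter of 5 FPKM. Mmp13 dropped out with that filter and with the replicate block. The exceptions were Adamts6, Adamts7 and Timp1, as given above. Timp1 was also lost with the exact permutation test (adjusted p = 0.058) and the replicate block (adjusted p = 0.139), and Adamts7 with the exact permutation test (adjusted p = 0.0509). Of 13 uncalled members, 9 were never called. Quantile normalization called Mmp16 (adjusted p = 0.019), and the replicate block called Mmp3 (adjusted p = 0.0246) and Timp3 (adjusted p = 0.0452).

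No called member reversed. Uncalled members turned sign as follows, in log2. With the replicate block Adamts1 was at -0.19, Mmp17 at 0.14 and Mmp15 at 0.51. With quantile normalization Mmp17 was at 0.089, Adamts17 at 0.12 and Mmp15 at 0.087, where the median log2 difference over the table was 0.10 instead of -0.05. With median-of-ratios scaling Mmp15 was at 0.052. Leaving out 1 library put Adamts17 between -0.38 and 0.066 (without LPS 7) and Mmp15 anywhere between -0.29 and 0.15. The cause was not tested. Over all rows, quantile normalization gave 4182 higher and 3449 lower calls, against 2806 and 4007 as reported.

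Depth limits the low members: values near 0.03 FPKM rest on about 1 fragment, and folds against them are not given.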

Other observations

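The summed FPKM of the 19 ADAMTS genes was 122 to 334 FPKM in LPS (median 171 FPKM) and 122 to 170.0 FPKM in WAT. The leading gene was Adamts12 in 3 tumours, Adamts4 in 3, Adamts1 in 1 (LPS 6) and Adamts9 in 1 (LPS 4), and it was Adamts10 in 2 WAT libraries and Adamts12 in 2. Adamts4 gave 14.4% to 29.5% of the sum in LPS and 1.49% to 2.37% in WAT. Adamts2 gave 0.235% to 7.40% in LPS and 12.6% to 16.8% in WAT. Adamts12 gave 6.87% to 31.4% in LPS and 18.0% to 19.4% in WAT.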
